A study of Homo sapiens with 6 samples.

Results

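The genes described here are the 44 proteasome genes expressed in HEK293 cells, among 23686 genes counted. They were chosen by symbol: 48 gene symbols had the form PSM, a letter from A to G and a number. PSMB8 and PSMB9, subunits of the immune form of the particle, were set aside by name, and PSMA8 and PSMB11 did not reach 10 reads in at least 3 libraries. The lowest members inside that limit were PSMB10, with 70 to 200 reads a library, PSMC1, with 157 to 573, and PSMG4, with 203 to 402. PSMB11, known as a thymus subunit, had 0 or 1 read a library. PSMA8, known as a testis subunit, had 0 reads in every library, which allows up to 0.157 CPM in the shallowest one. CPM, used throughout, is a gene's read count scaled to the depth of its library and by the library's TMM factor (0.986 to 1.03). Bounds for counts of 0 use depth alone.

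HEK293 is an established human embryonic kidney line, and all sequenced cells were GFP+, that is, positive for green fluorescent protein. The co-culture group had 3 samples of such cells kept for 10 h together with ROS-producing HEK293 cells marked +DAAO, with D-alanine at 25 µM. DAAO is D-amino acid oxidase, which releases hydrogen peroxide, a reactive oxygen species (ROS), as it oxidises D-amino acids. The control group held 3 samples of GFP+ cells labelled Wt controls. Cells of both groups were sorted by flow cytometry for GFP. One treatment text covers all samples, so whether controls received D-alanine or partner cells is not given, and neither is the promoter of the transgenes or whether the lines are single clones. Nothing says that the 3 samples of a group came from separate cultures, so p-values measure the spread between these samples, which may be technical.

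The proteasome degrades proteins that carry ubiquitin chains. Its core particle stacks rings of alpha subunits, which gate the pore, on rings of beta subunits, some of which carry the proteolytic sites. A regulatory particle of ATPases and non-ATPase subunits captures ubiquitylated proteins, unfolds them and feeds them in, and dedicated chaperones assemble both particles. The transcription factor NFE2L1 (NRF1) is known to raise proteasome genes together when proteasome activity falls, and the core particle alone, or with a PSME activator, has been described as able to degrade oxidised proteins.

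Gene-assigned reads ran from 19091085 to 36250314 a library. All 7 HEK293 markers that were listed (VIM, KRT8, KRT18, NEFL, NEFM, LHX1 and PAX2) were detected, and PTPRC, PECAM1, CDH5 and ALB, markers of leukocytes, endothelium and liver, had 0 to 5 reads each. The fibroblast collagen COL3A1 stood at 2.23 to 4.33 CPM in 5 libraries and at 9.30 CPM in control 1. VIM was higher in co-culture (log2 fold change 0.40, SE 0.06, edgeR adjusted p 0.0079). Reads on the unexpected strand made up a median of 0.124% and 0.211% in co-culture 2 and 3 and 1.57% to 1.75% in the other 4 libraries. A fit that took this split as a batch rests its group difference on co-culture 1 against the controls. Shifts under this batch term were compared with the spread between replicates for the members given by library, PSMB8, PSMB9, POMP and NFE2L1. The log2 fold change moved by more than that spread for PSMB5 (to -0.17), PSMC1 (to -0.90) and PSMD4 (to -0.07, a change of sign). The same held for PSMD5 (to 0.16), PSMF1 (to -0.18) and NFE2L1 (to 0.08). PSMB10 then stood at 0.01 and PSMC6 at 0.02, shifts within that spread. UCHL5, which was not in that comparison, moved from 0.22 to 0.35.

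Transcripts of the proteasome stood at nearly the same level in both groups. In edgeR, with p-values adjusted over all 14582 tested genes, 0 of the 44 members had an adjusted p under 0.05, where 4.83% of all tested genes did. At an unadjusted p under 0.05 there were 3 members, PSMD14 higher and PSMD10 and PSMG3 lower, against 23.2% of tested genes. DESeq2 called 1 member, PSMG3, where it called 7.52% of genes, and limma-voom called 0, where it called 4.63%. The median log2 fold change was -0.0025 over the members and -0.0022 over all tested genes, with 22 members above 0 and 22 below. That split was 15 above and 29 below with total counts, 16 and 28 without control 1 or without co-culture 3, and 31 and 13 without control 2. The median absolute change was 0.05 over the members and 0.13 over all tested genes. Members had a higher median control level, 159.9 CPM against 30.7 CPM, so these medians are not like for like.

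In the fit with group as the only term, most members were bounded closely. The median SE of the log2 fold change was 0.07 over the members. Taking the strand split as a batch gave larger SEs for most members, such as 0.09 for PSMA1 and 0.10 for PSMB5, against 0.06 and 0.07. The intervals that follow do not include that split. For 33 of the 44 (75.0%) the 95% interval lay within 1.2-fold in either direction, and for 42 (95.5%) within 1.5-fold. Over all tested genes these shares were 30.8% and 75.1%, and members are better covered, with a median control level of 159.9 CPM against 30.7 CPM. The 11 members whose interval reached past 1.2-fold were PSMB10, PSMC1, PSMC6, PSMD1, PSMD12, PSMD14, PSME1, PSMD9, PSMD10, PSMG3 and PSMG4, and those past 1.5-fold were PSMB10 and PSMC1. Among the 41 members that averaged 20 CPM or more the farthest bound was 1.36-fold, that of PSMG3. CPM is relative to a library's reads, so fewer cells and less RNA per cell cannot be told apart. A change in the total RNA of the cells would not be seen.

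**Figure D1:**
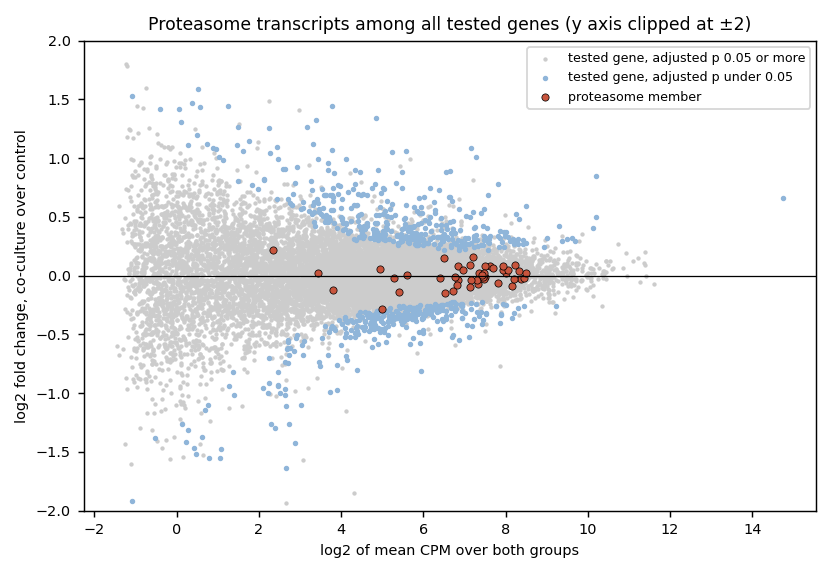
Log2 fold change of co-culture over control (y axis) against the log2 of the mean CPM (x axis) for each tested gene. Grey points are genes at an adjusted p of 0.05 or more, blue points genes under 0.05 and red points the 44 proteasome members. The members lie between -0.28 and 0.22 and none is among the blue points; 10 genes lie outside the y axis.

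**Figure D2:**
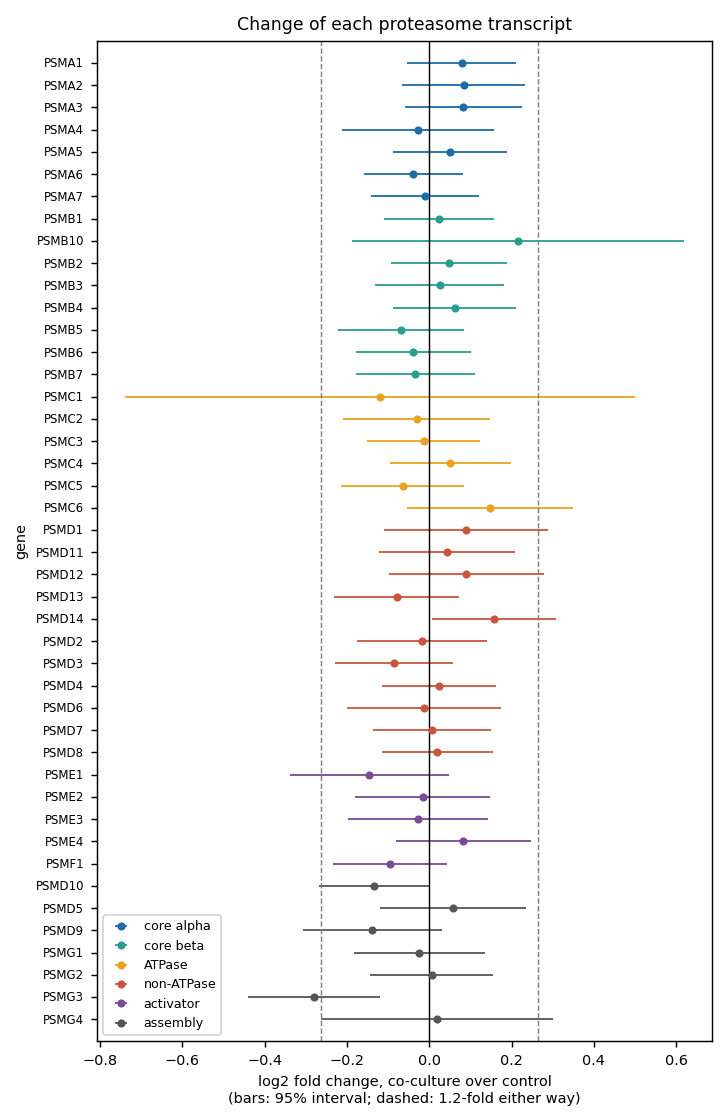
Log2 fold change of each member (x axis) with its 95% interval (bars), one gene a row, coloured by class. Dashed lines mark 1.2-fold in either direction. All but 11 intervals lie between the dashed lines, and the widest belong to PSMC1 and PSMB10.

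Promoters of members were searched for the letters TGACNNNGC, the shape of the antioxidant response element that NFE2L1 and NFE2L2 bind as dimers with small MAF proteins, on both strands. The search covered the 250 bases before the start site of each RefSeq gene model (GRCh38.p14). The letters TGAC also begin AP-1 and cyclic AMP response elements, so a match does not tell these factors apart. Of the 38 members with a promoter entry, 12 held the letters (31.6%), and 10.9% of all 35116 windows of that length did. A member counted if any of its windows held them, while the second share is of single windows, from genes expressed here or not. The shares are therefore not like for like, and the difference between them was not tested. PSMA7, PSMB1, PSMB6, PSMB7, PSMD4 and PSMG3 had no entry. The match nearest to the start in each class is printed here with 25 bases on either side, 5′ to 3′ on the strand of the gene, with the match in capitals. These matches are descriptions of sequence, not sites shown to be bound.
PSMA4 (chr15:78540635-78540693, + strand): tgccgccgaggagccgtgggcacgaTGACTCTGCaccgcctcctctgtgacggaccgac
PSMB3 (chr17:38752612-38752670, + strand): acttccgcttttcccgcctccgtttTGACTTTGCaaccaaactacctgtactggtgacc
PSMC5 (chr17:63827639-63827697, + strand, match on the other strand): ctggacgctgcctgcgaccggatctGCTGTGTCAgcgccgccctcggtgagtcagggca
PSMD3 (chr17:39980745-39980803, + strand): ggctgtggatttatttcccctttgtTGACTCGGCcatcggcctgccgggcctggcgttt
PSME4 (chr2:53970994-53971052, - strand, match on the other strand): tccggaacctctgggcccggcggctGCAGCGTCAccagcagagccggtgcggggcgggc
PSMG2 (chr18:12658674-12658732, + strand): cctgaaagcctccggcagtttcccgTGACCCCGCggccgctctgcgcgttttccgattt

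The other members with the letters were PSMD12, PSME1, PSME2, PSMD5, PSMD9 and PSMG1. The 12 genes had a median log2 fold change of -0.02, within a range of -0.15 to 0.09, and the 26 without a match had a median of 0.02. The letters CCAAT, the core of the element bound by NF-Y, were found for 17 of the 38 members (44.7%) and in 32.0% of all windows. These shares are unlike in the same way. Members with CCAAT had a median of -0.01 and those without it a median of 0.04. These medians are descriptions and were not tested.

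The 7 alpha subunits, which form the outer rings and the gate of the core, had log2 fold changes from -0.04 (PSMA6) to 0.08 (PSMA2). PSMA2 stood at 188, 183 and 186 CPM in co-culture 1, 2 and 3 and at 159, 187 and 179 CPM in controls 1, 2 and 3. Only control 1 was low, and the groups overlapped (log2 fold change 0.08, SE 0.07, edgeR adjusted p 0.493). PSMA6 stood at 112, 114 and 115 CPM in co-culture and at 113, 119 and 119 CPM in the controls (-0.04, SE 0.05, edgeR adjusted p 0.707). PSMA1 was the 1 alpha subunit whose co-culture values all exceeded the controls, at 203 ± 4.56 against 192 ± 10.1 CPM (SD, n = 3 each). The difference was 0.08 on the log2 scale (SE 0.06, adjusted p 0.469 in edgeR). PSMA3, PSMA4, PSMA5 and PSMA7 had log2 fold changes of 0.08, -0.03, 0.05 and -0.01.

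Among the beta subunits, PSMB5, PSMB6 and PSMB7 carry the chymotrypsin-like, caspase-like and trypsin-like sites. PSMB5 stood at 146, 156 and 166.1 CPM in co-culture and at 153, 165.99 and 172 CPM in the controls. PSMB6 stood at 148, 154 and 162 CPM in co-culture and at 149, 163 and 164 CPM in the controls. PSMB7 stood at 139, 138 and 148 CPM in co-culture and at 135, 154 and 147 CPM in the controls. In all 3 catalytic subunits the groups overlapped and the lowest library was co-culture 1 or control 1. On the log2 scale PSMB5 differed by -0.07, PSMB6 by -0.04 and PSMB7 by -0.03 (SE 0.07, 0.06 and 0.07), with adjusted p-values of 0.594, 0.751 and 0.796 in edgeR. The structural subunits PSMB1, PSMB2, PSMB3 and PSMB4 had log2 fold changes of 0.02, 0.05, 0.03 and 0.06. Counted without regard to strand, PSMB7 had 0.530 times its reverse-strand reads, and its log2 fold change was 0.02.

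PSMB10, the immune counterpart of PSMB7, was the member with the largest positive change and among the least certain. Its levels were 4.70, 5.94 and 5.59 CPM in co-culture and 3.54, 5.37 and 5.06 CPM in the controls, with control 1 the lowest and the groups overlapping. The log2 fold change was 0.22 (SE 0.18, edgeR adjusted p 0.517), and without control 1 it was 0.06. Per kilobase of its principal GENCODE 29 transcript, PSMB10 stood at 3.82 CPM in the controls, and the other 7 beta subunits stood at 89.6 to 273. The files' own transcript models may differ, so only this wide gap is read from lengths.

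PSMB8 and PSMB9, the immune counterparts of PSMB5 and PSMB6, were also low. PSMB8 stood at 1.15, 0.855 and 1.37 CPM in co-culture and at 2.98, 1.46 and 1.53 CPM in the controls. Every co-culture library was below every control, as in 15.0% of tested genes. Control 1 was highest by far (log2 fold change -0.78, SE 0.32, edgeR adjusted p 0.178). Without control 1 the log2 fold change of PSMB8 was -0.37 (edgeR adjusted p 0.351). PSMB9 stood at 1.00, 0.998 and 1.09 CPM in co-culture and at 2.07, 1.15 and 0.997 CPM in the controls. It differed by -0.42 on the log2 scale (SE 0.31, adjusted p 0.452 in edgeR) and by -0.03 without control 1. COL3A1 was also highest in control 1; the part of other cells in the PSMB8 and PSMB9 values was not tested.

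Of the 6 ATPases, which unfold substrates, PSMC6 had the highest log2 fold change, at 0.15 (SE 0.09, adjusted p 0.360 in edgeR). It stood at 87.0, 100.3 and 97.6 CPM in co-culture and at 73.6, 93.1 and 90.5 CPM in the controls. Again control 1 was lowest and the groups overlapped; without it the value was 0.05. PSMC2, PSMC3, PSMC4 and PSMC5 had log2 fold changes of -0.03, -0.01, 0.05 and -0.06.

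PSMC1 was unlike the other ATPases in level and in spread. It stood at 7.86, 16.1 and 16.01 CPM in co-culture and at 11.9, 16.8 and 15.1 CPM in the controls, where the other 5 ATPases lay between 73.6 and 284 CPM. Co-culture 1 was the low library and the groups overlapped; the log2 fold change was -0.12 (SE 0.27, edgeR adjusted p 0.825). With the strand split as a batch, a comparison that rests on co-culture 1, it was -0.90 (SE 0.21, unadjusted p 0.00173, edgeR adjusted p 0.171). Without co-culture 1 the sign turned, to 0.14 (SE 0.14), and without control 2 the value was -0.01. Stretches of 50 bases that also occur in genes at other loci made up 29.4% of its principal transcript, and GENCODE 29 names 13 PSMC1 pseudogenes. Reads that map to several places were not counted per gene, so the level of PSMC1 is uncertain. How far such reads account for its low level was not tested. Co-culture 1 also had the highest share of multimapping reads, 8.42% against 6.48% to 7.03% elsewhere; their part in the PSMC1 value was not tested. PSMA6, PSMC6, PSMD4 and PSME2 had 10.9% to 24.7% of such stretches and averaged 117, 85.7, 176 and 39.0 CPM in the controls. For 28 of the 44 members the share was 0%.

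The 11 non-ATPase subunits form the lid and the scaffold of the regulatory particle and include its ubiquitin receptors. PSMD14, the deubiquitinase that removes chains from captured proteins, had the highest log2 fold change of the class. It stood at 158, 153 and 156 CPM in co-culture and at 126, 147 and 146 CPM in the controls, and every co-culture library was above every control. The log2 fold change was 0.16 (SE 0.07, unadjusted p 0.0432, edgeR adjusted p 0.200). Without control 1 it was 0.09 (edgeR adjusted p 0.219).

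PSMD3, a scaffold subunit of the lid, was lowest of the class at -0.08 (SE 0.07, edgeR adjusted p 0.469), with 266, 266 and 296 CPM in co-culture and 281, 298 and 299 CPM in the controls. PSMD4, a ubiquitin receptor, stood at 167, 178 and 191 CPM in co-culture and at 178, 178 and 171 CPM in the controls (0.02, SE 0.06, edgeR adjusted p 0.854). PSMD11, a lid subunit whose higher level is known to raise assembled proteasomes in stem cells, stood at 329, 315 and 328 CPM in co-culture and at 280.0, 324 and 339 CPM in the controls (0.04, SE 0.08, edgeR adjusted p 0.769). In PSMD3, PSMD4 and PSMD11 the groups overlapped, and without control 1 PSMD11 turned to -0.03. The remaining 7 subunits of the class had log2 fold changes from -0.08 (PSMD13) to 0.09 (PSMD12).

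The activators open the core without ubiquitin. PSME1, which with PSME2 forms an interferon-inducible cap, had the lowest value of the class. It stood at 88.5, 82.6 and 90.9 CPM in co-culture and at 109.6, 95.8 and 85.0 CPM in the controls, with control 1 highest and the groups overlapping (log2 fold change -0.15, SE 0.09, edgeR adjusted p 0.344). It was -0.05 without control 1 and -0.23 without control 3 (unadjusted p 0.00898, edgeR adjusted p 0.0928). PSME2 differed by -0.02 on the log2 scale. PSME3, the nuclear cap, stood at 299, 284 and 297 CPM in co-culture and at 263, 313 and 321 CPM in the controls (-0.03, SE 0.08, edgeR adjusted p 0.858). PSME4, a nuclear activator linked to acetylated histones, stood at 247, 257 and 245 CPM in co-culture and at 209.6, 246 and 253 CPM in the controls (0.08, SE 0.07, edgeR adjusted p 0.546). For PSME3 and PSME4 the co-culture libraries were close together and control 1 was the low value; without it they stood at -0.11 and 0.0035 on the log2 scale.

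PSMF1, which encodes a regulator that inhibits the core in vitro, is counted here beside the activators. It stood at 128, 134 and 143 CPM in co-culture and at 139, 143 and 151 CPM in the controls. The groups overlapped, and the log2 fold change was -0.10 (SE 0.06, edgeR adjusted p 0.388).

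Assembly chaperones gave the member closest to the threshold. The class holds PSMG1, PSMG2, PSMG3 and PSMG4, which build the alpha ring, and PSMD5, PSMD9 and PSMD10, which despite their symbols are chaperones of the ATPase ring. PSMG3 stood at 27.8, 28.2 and 29.8 CPM in co-culture and at 33.5, 33.8 and 36.9 CPM in the controls. Every co-culture library was below every control, with means of 28.6 ± 1.08 and 34.7 ± 1.86 CPM (SD, n = 3 each). The log2 fold change was -0.28 (SE 0.07, 95% interval -0.44 to -0.12), or 0.823-fold, with an unadjusted p of 0.00278 and an edgeR adjusted p of 0.0533.

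The adjusted p of PSMG3 fell on either side of the threshold with the setting. It was 0.0309 with scaling by total counts (where 6.05% of genes passed), 0.0498 in DESeq2 and 0.00723 without control 1 in edgeR, and it was 0.0520 to 0.308 in the other 11 settings. The log2 fold change ran from -0.32 to -0.23 over these settings. Its partner in the same chaperone pair, PSMG4, had a log2 fold change of 0.02 (SE 0.13) at 10.9 ± 0.601 against 10.8 ± 1.67 CPM. PSMG1 and PSMG2, which form the other pair, had values of -0.02 and 0.01.

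PSMD10 differed by -0.13 on the log2 scale (SE 0.06, unadjusted p 0.0496, edgeR adjusted p 0.215) and PSMD9 by -0.14 (SE 0.08, edgeR adjusted p 0.308). PSMD5, the highest of the class, stood at 33.7, 28.4 and 31.8 CPM in co-culture and at 29.1, 29.7 and 31.3 CPM in the controls (0.06, SE 0.08, edgeR adjusted p 0.711). Over all members, 2 genes had every co-culture library above every control (PSMA1 and PSMD14, against 14.3% of tested genes) and 1 had every one below (PSMG3, against 15.0%).

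Of the 6 libraries, control 1 stood farthest from the rest over the members. Control 1 was the lowest of the 6 libraries for 26 of the 44 members (59.1%) and for 26.4% of all tested genes. The median deviation from a gene's mean over the 6 libraries was -0.09 on the log2 scale in control 1, and it was 0.06 and 0.03 in controls 2 and 3. In co-culture 1, 2 and 3 it was -0.01, -0.04 and 0.05. Over all tested genes these medians lay between -0.0024 and 0.0075. By class, control 1 was at -0.13 for alpha subunits, -0.08 for beta subunits, -0.16 for ATPases and -0.12 for non-ATPase subunits, and at -0.003 for activators and 0.06 for assembly factors.

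**Figure D3:**
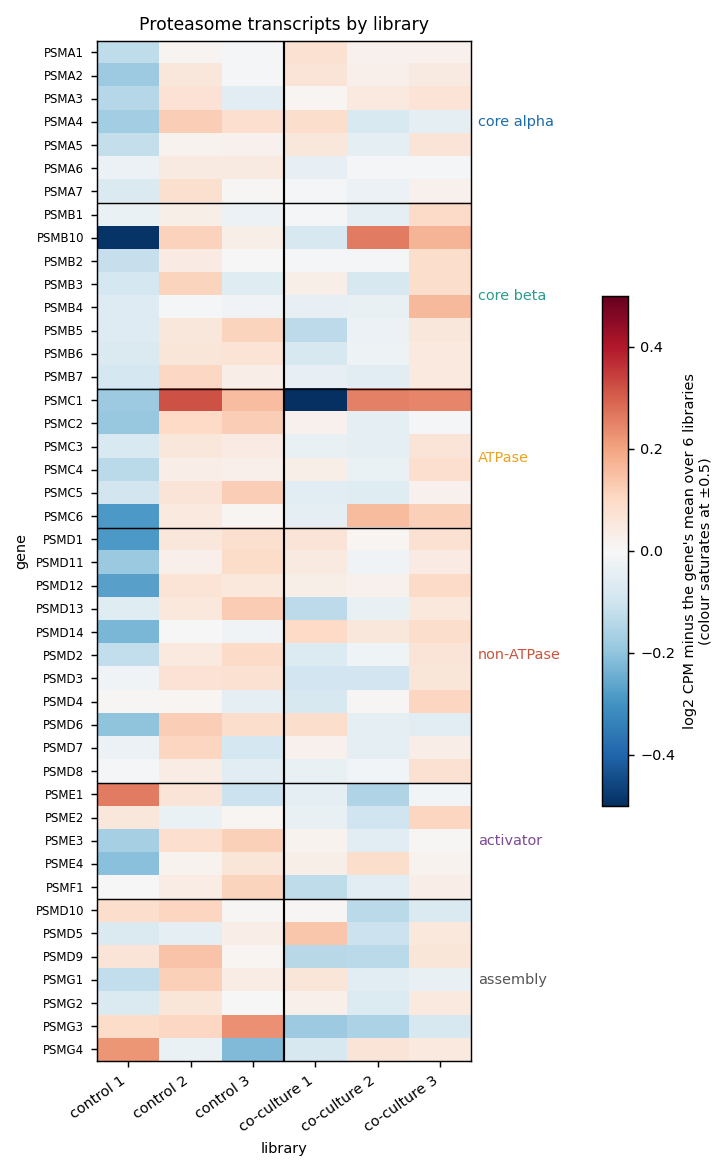
Log2 CPM of each member minus its mean over the 6 libraries (colour, saturating at 0.5 in either direction), with genes in rows by class and libraries in columns. The column of control 1 is blue through most of the core and regulatory particle rows and red for PSME1 and PSMG4, and PSMC1 is low in co-culture 1.

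Summed over all 44 members, the level was 7125, 7024 and 7406 CPM in co-culture and 6656, 7447 and 7349 CPM in controls 1, 2 and 3. The group means, 7185 ± 198 and 7151 ± 431 CPM (SD, n = 3 each), differed by less than either SD, a ratio of 1.00 that was 0.971 without control 1. The alpha, beta, ATPase, non-ATPase and activator sums had ratios of 1.02, 1.01, 1.00, 1.01 and 0.986. Without control 1 these were 0.979, 0.983, 0.958, 0.977 and 0.955, so that the first 4 turned below 1. The assembly sum was 355, 331 and 350.5 CPM in co-culture and 356, 378 and 362 CPM in the controls, a ratio of 0.945, and all 3 co-culture values were below the controls, by little in co-culture 1.

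**Figure D4:**
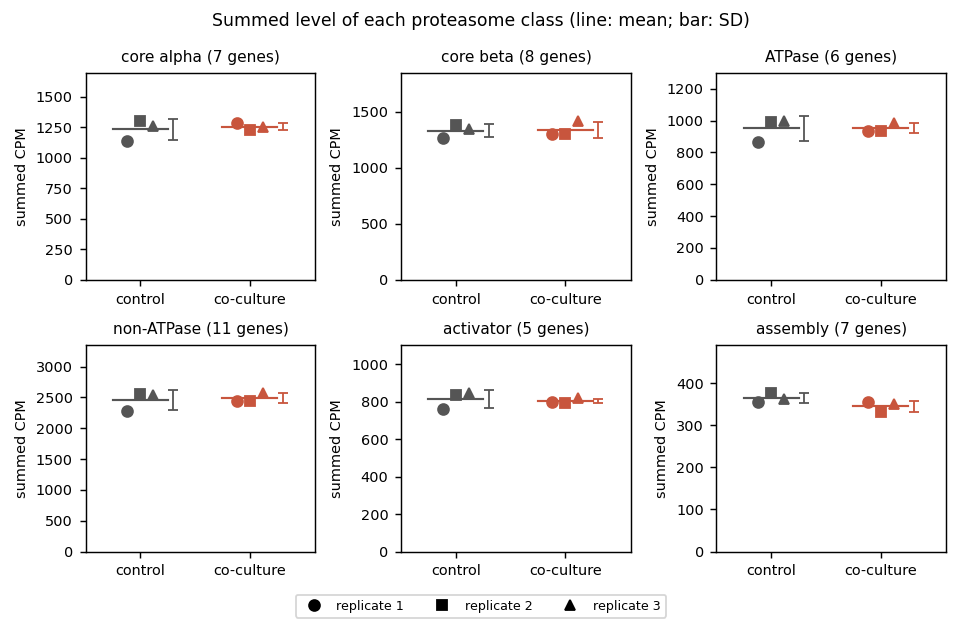
Summed CPM of each class (y axis, from 0) in the control and co-culture libraries; marker shape gives the replicate number, the line the mean and the bar the SD of 3 libraries. In all panels but the last, control 1 is the lowest point; in the assembly panel the co-culture points lie at 331 to 355 CPM and the controls at 356 to 378 CPM.

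Leaving out control 1 raised the calls over all genes to 3069, or 20.8% of 14734 tested genes. Among the members it gave 1 call, PSMG3 (2.27%), and 7 members at an unadjusted p under 0.05, all lower: PSMC2, PSMC5, PSMD10, PSMD13, PSME3, PSMF1 and PSMG3, against 17.5% of tested genes that were lower at that limit. The median log2 fold change of the members was then -0.03, and the range was -0.31 to 0.15.

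Genes that work with the proteasome but fall outside the symbol rule were taken from a list of 29, of which 3 appear in the files under older symbols (SHFM1 for SEM1, KIAA0368 for ECPAS and UFD1L for UFD1). With edgeR, 0 of the 29 had an adjusted p under 0.05 (4.83% of all tested genes did), and 4 had an unadjusted p under 0.05 (23.2% of all tested genes): UCHL5 and NFE2L1 higher, UFD1L and UBB lower. DESeq2 and limma-voom also called 0 of the 29, where they called 7.52% and 4.63% of all genes. In 6 of the 29 every co-culture library was above every control (14.3% of tested genes), and in 1, UBE3C, every one was below (15.0%). The median log2 fold change was -0.0075. Without control 1, UBE3C, UFD1L and NPLOC4 passed, at -0.18, -0.31 and -0.18 (edgeR adjusted p 0.0204, 0.000449 and 0.0253), in a fit where 20.8% of all tested genes passed.

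NFE2L1, the regulator of proteasome genes, stood at 401, 418 and 437 CPM in co-culture and at 377, 379.8 and 382 CPM in the controls. Every co-culture library was above every control, a difference of 0.14 on the log2 scale (SE 0.06, adjusted p 0.182 in edgeR); with the strand split as a batch it was 0.08. DDI2 and NGLY1, the protease and the glycanase that activate the NFE2L1 protein, differed by -0.05 and 0.16 on the log2 scale (SE 0.10 and 0.08), adjusted p 0.806 and 0.224 in edgeR. POMP, the maturation factor that completes the core particle, stood at 105, 97.7 and 98.8 CPM in co-culture and at 81.9, 103 and 92.0 CPM in the controls (0.12, SE 0.08, edgeR adjusted p 0.409). Its groups overlapped, and control 1 was again the lowest.

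Of the enzymes bound to the regulatory particle, the deubiquitinase UCHL5 had the lowest adjusted p of the list. It stood at 112, 101 and 94.9 CPM in co-culture and at 82.6, 91.7 and 89.5 CPM in the controls, without overlap (log2 fold change 0.22, SE 0.07, edgeR adjusted p 0.106). USP14, the other bound deubiquitinase, had 0.11 (SE 0.07), and ADRM1, the receptor that holds UCHL5, had -0.04 (SE 0.07). The ubiquitin shuttles RAD23B, UBQLN1, UBQLN2 and UBQLN4 ran from -0.05 to 0.10. UFD1L and NPLOC4, cofactors of the segregase VCP, had -0.21 and -0.13, and VCP itself had -0.03. The polyubiquitin gene UBB had -0.17 (SE 0.08, edgeR adjusted p 0.205); its repeated ubiquitin units make the assignment of reads uncertain.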

How the data were processed

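Per the labels' protocols, RNA of 6 samples was extracted with Tripure and made into strand-specific mRNA libraries with an Illumina kit. The submitters' processing notes name FastQC, STAR 2.53a and build hg18; the annotation and trimming are not given in the sources used here. The authors deposited raw read counts per gene, of which the reverse-strand column was used; 4 summary lines were left out (unmapped 1.22% to 1.67%, multimapping 6.48% to 8.42%, no gene 14.8% to 17.7%, ambiguous 0.835% to 1.01% of reads). A count of 0 allows up to 3 reads, 0.0828 to 0.157 CPM; such bounds cover counting error only.

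Genes passing filterByExpr (minimum count 10), 14582 in all, were fitted in edgeR 4.0.16 (R 4.3.3) with TMM scaling, group as the only term, robust quasi-likelihood F tests and Benjamini-Hochberg adjustment at 0.05. SEs are the absolute log2 fold change over the square root of F; 95% intervals use the fit's degrees of freedom and are not adjusted for the number of genes. CPM are TMM-scaled. No pair of libraries of a group looked like repeats (chi-square per degree of freedom 4.73 to 18.5). Alternatives were DESeq2 1.42.0, limma 3.58.1 (voom), other scalings, no filter, unstranded counts, a replicate block, the strand class and each library left out. The fit was also run on simulated counts with larger changes than any member showed, the same dispersion for every gene and no strand split. That run does not bear on changes as small as those of the members. Promoters came from RefSeq (GRCh38.p14), and lengths and copies from GENCODE 29; no coordinates of the files' build are given. Members, classes and lists were chosen with earlier results of these data known. Per-library values were given for members past the threshold, the highest and lowest of each class, and 14 genes picked by function. They were also given for UCHL5, which had the lowest adjusted p of the partner list, and for PSMG3-AS1. Some genes of the partner list are counted but not reported by name here.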

Additional observations from a re-analysis of the deposited data

How the results depend on the processing

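Of 14 other settings, the count of proteasome members past the threshold stayed at 0 in 11 and was 1 (PSMG3, lower, an assembly factor, so that the count of that class was also 1) with total counts, with DESeq2 and without control 1; over the fits that left out a library it ran from 0 to 1. Partner genes past the threshold ran from 0 to 3 over the fits that left out a library, 3 of them without control 1, and were 0 in the other settings. The members' median log2 fold change ran from -0.03 to 0.03 with a library left out. Calls over all genes ran from 65 (without control 2) to 3069 (without control 1) and were 29 with the strand split taken as a batch and 1032 with DESeq2. With the replicate block, 164 genes and 0 members passed, and PSMG3 had an adjusted p of 0.118 in edgeR; same-numbered libraries did not deviate together (correlations of -0.04, -0.09 and -0.09), and no co-culture library correlated best with the control of its own number. The lowest counts were those of PSMB10, PSMB8 and PSMB9, where SEs were 0.18 to 0.32. The cause of these shifts was not tested.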

Other observations

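Other gene rows have symbols that begin with PSM but encode no proteasome part. PSMC3IP, a recombination factor, averaged 52.4 ± 1.25 CPM in the co-culture group and 53.7 ± 2.05 CPM in the control group (SD, n = 3 each). It differed by -0.04 on the log2 scale (SE 0.06, adjusted p 0.773 in edgeR). PSMG3-AS1, a noncoding RNA named for its place antisense to PSMG3, stood at 8.01, 7.89 and 8.99 CPM in co-culture and at 7.73, 7.09 and 7.75 CPM in the controls. All 3 co-culture values were above the controls, as in 14.3% of tested genes (0.14 on the log2 scale, SE 0.12, adjusted p 0.517 in edgeR). PSMD6-AS2 stood at 0.859 to 2.19 CPM over the 6 libraries, with overlapping groups and a wide interval (0.41 on the log2 scale, SE 0.30, 95% interval -0.26 to 1.07, adjusted p 0.453 in edgeR).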
